A study of Mus musculus with 24 samples.

Results

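The glucocorticoid and fasting responsive genes described here are 10 mouse genes chosen by name: Nr3c1, Tsc22d3, Fkbp5, Ddit4, Sgk1, Tat, Dusp1, Klf9, Irs2 and Igfbp1. They were followed in the livers of C57Bl/6J mice whose Arntl gene (Mop3 or Bmal1, the core activator of the circadian clock) carries loxP sites, either without Cre recombinase (Mop3fxfx, here floxed livers) or with Cre driven by the albumin promoter, which is active in hepatocytes (Mop3fxfxCreAlb, here Cre livers). The floxed alleles are shared by both groups, and no group had Cre without them. Food and water were freely available under 12 h light and 12 h dark, so no animal was fasted or given a hormone. At 10 and at 20 weeks of age livers were sampled in 6 steps of 4 h through the day, starting at lights on (zeitgeber time 0, ZT0), which gave 24 arrays: 12 for each genotype, 6 of them at each age. Every array held a pool of at least 3 mice, set against a liver reference pool made of 10-week mice of both genotypes. The spread between arrays therefore includes time of day and age, and nothing is known about single mice. Of the 10 genes 9 were measured among 18967 genes in all. They had 18 probes, of which 17 passed the filter on dim signals, and all 9 were well above background in both dyes on 24 of 24 arrays. Sgk1 stood under its older name Sgk, and no probe was found for Irs2, which is not analysed here.

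Glucocorticoids reach the liver from the adrenal gland in a daily wave, which in nocturnal rodents crests around the onset of darkness. They bind the glucocorticoid receptor, the product of Nr3c1, which then moves to the nucleus and acts on genes that carry its response element. Fasting works partly through the same receptor and partly through glucagon, cyclic AMP and the fall of insulin, which frees FOXO transcription factors to act. Because these signals come from outside the liver, rhythms of their target genes can persist when the liver's own clock is disabled, and the question put to these members was whether they cycled in floxed and in Cre livers alike.

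The labels give Cy3 to the liver sample and Cy5 to the reference, and the values below run against them. Within the 6 slides that held more than 1 array, 80.4 to 90.9% of the probes had the larger spread in Cy5, whereas a common reference should vary least. Arntl RNA, known to be highest in mouse liver around the end of the night, peaked at ZT 21.8 in floxed livers when Cy5 over Cy3 was read as sample over reference. The log2 ratio of Cy5 over Cy3 is used throughout. Under the dyes as labelled every sign turns, higher and lower change places and each peak moves by 12 h, while amplitudes, p-values and total counts stay. The targeted gene itself ran from -2.18 to 1.60 in floxed livers and from -0.90 to 0.52 in Cre livers. Its amplitude, the height of a fitted 24 h curve above its mean, was 1.69 ± 0.17 (SE) and 0.22 ± 0.17, and the difference in rhythm passed the test (limma adjusted p = 0.030). Whether its probe lies in the deleted part is not known here.

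Fkbp5 was the member whose daily rhythm passed the test. It encodes FKBP51, a co-chaperone that lowers the hormone affinity of the glucocorticoid receptor and is itself induced by the hormone. The values here are those of its probe brightest over both dyes, which stands for the gene. In each of the 4 series of 6 times (2 genotypes at 2 ages) its highest value fell at ZT12, the onset of darkness. The log2 ratio at ZT12 was 1.27 in floxed and 1.32 in Cre livers at 10 weeks. At 20 weeks it was 0.93 in floxed and 0.06 in Cre livers, so the last of the 4 was the lowest crest. The lead of ZT12 over the next highest time of the same series ran from 0.19 to 1.61. Over the 12 floxed arrays Fkbp5 ran from a lowest value of -2.02 through a median of -0.93 to 1.27, and over the 12 Cre arrays from -1.55 through -0.72 to 1.32. The ranges of the genotypes overlapped almost fully. The lowest value of 3 of the series was at ZT20, and that of the 10-week floxed series at ZT4. The other Fkbp5 probes were highest at ZT12 in the 10-week Cre series and at ZT16 in the remaining series. At ZT16 of the 20-week floxed series they gave 0.28 and 0.0076, where the brightest probe gave -1.37.

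**Figure D1:**
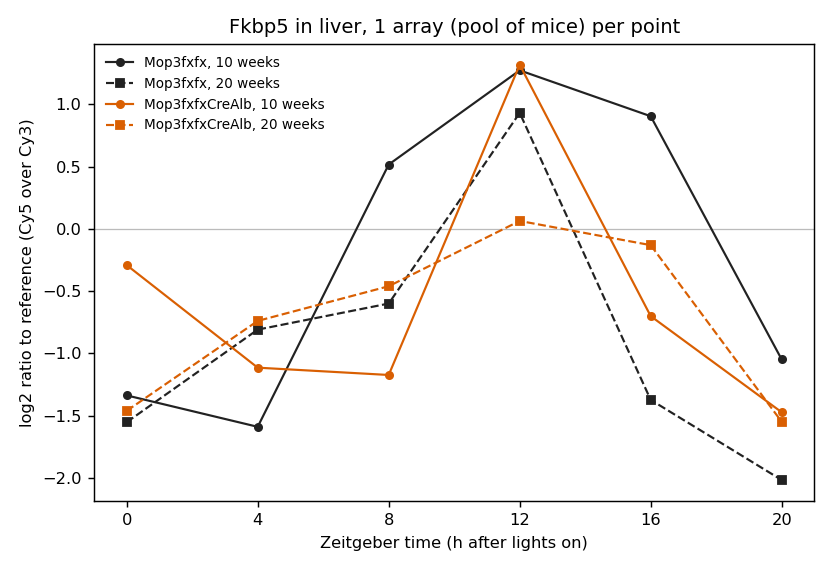
Log2 ratio of Fkbp5 to the reference pool (vertical axis) against zeitgeber time in hours (horizontal axis), 1 point per array, with floxed livers in black, Cre livers in orange, 10 weeks as circles with solid lines and 20 weeks as squares with dashed lines. For the probe shown, all 4 series are highest at ZT12, where the values are 1.27 and 0.93 in floxed and 1.32 and 0.06 in Cre livers.

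The fitted amplitude of Fkbp5 was 1.27 ± 0.26 (SE) in floxed livers with a peak at ZT 11.5, and 0.72 ± 0.26 in Cre livers with a peak at ZT 11.7. Averaged over the genotypes the amplitude was 0.996, a 3.98-fold distance from trough to peak, and this rhythm passed the test over all genes (limma adjusted p = 0.012). In floxed livers alone it passed too (adjusted p = 0.037). In Cre livers alone it did not (p = 0.041, adjusted p = 0.52), and the difference of the amplitudes, Cre minus floxed, was -0.54 with a 95% interval from -1.32 to 0.24. The rhythm was therefore not shown to differ between the genotypes (p = 0.36), and the interval also holds a loss of the whole floxed amplitude. The 3 Fkbp5 probes each passed in the averaged rhythm, with amplitudes of 0.996, 0.79 and 0.38 and peaks at ZT 11.6, 13.2 and 13.9. The probe of amplitude 0.79 reached 0.87 ± 0.14 in floxed and 0.70 ± 0.14 in Cre livers. The averaged call held when any 1 array was left out (adjusted p from 0.0044 to 0.034). The floxed call was lost without any of the 6 floxed arrays of 10 weeks and without the 20-week floxed arrays of ZT0, ZT12 or ZT20, with an adjusted p of up to 0.15. With the 6 times as free levels in place of a curve, an alternative added after the sharp crest was seen, the adjusted p was 0.073 for the averaged and 0.25 for the floxed rhythm.

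In the count over members, 1 of 9 was called rhythmic in floxed livers against 1.53% of all genes, and 1 of 9 in the averaged rhythm against 3.5%. In Cre livers alone limma called 0 of 9 members and 0% of all genes (0 genes, with 1708 at an unadjusted p under 0.05), and 2 members lay under an unadjusted p of 0.05, Fkbp5 and Tat, whose probe was saturated on 8 of the 12 Cre arrays. For the difference in rhythm limma called 0 of 9 members, 0 of them even at an unadjusted p under 0.05, against 0.0316% of all genes (6 genes, with 543 at an unadjusted p under 0.05). A daily rhythm thus passed the test for Fkbp5 and for no other member on these arrays. Tsc22d3 and Ddit4 came next: their averaged amplitudes were 0.35 with a peak at ZT 13.5 (adjusted p = 0.26) and 0.55 with a peak at ZT 17.8 (adjusted p = 0.13). The median amplitude of the 9 members was 0.34 in floxed and 0.34 in Cre livers (0.36 and 0.35 without Tat), beside 0.11 and 0.10 over all genes. A fitted amplitude cannot be negative and grows with the spread between arrays, and its SE reached 0.31 for Igfbp1. Medians of amplitudes alone therefore do not show a stronger rhythm.

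**Figure D2:**
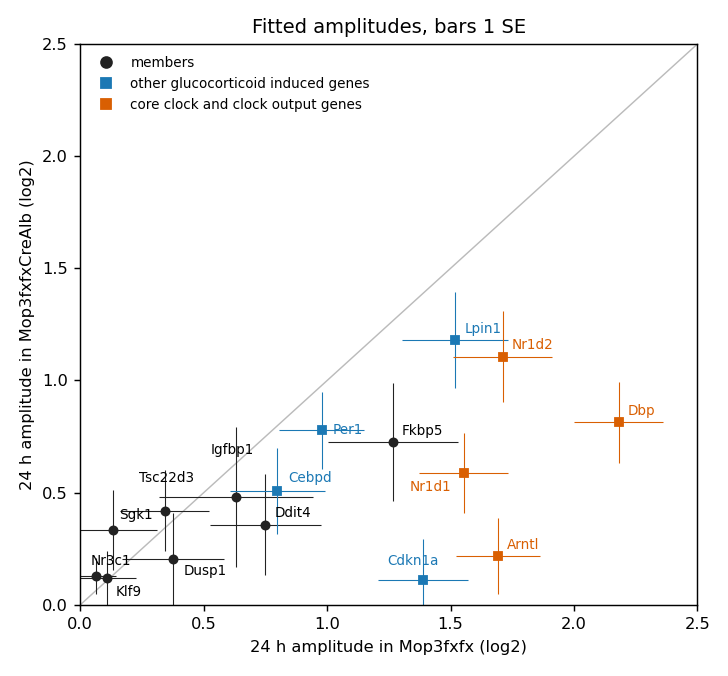
Fitted 24 h amplitude on the log2 scale in floxed (horizontal) and Cre livers (vertical), with bars of 1 SE and the diagonal of equal amplitudes, for 8 members (black), 4 other glucocorticoid induced genes (blue) and 4 clock genes (orange). Tat is left out because its probe was saturated. Fkbp5 lies at 1.27 and 0.72, near Per1 at 0.98 and 0.78, while Arntl at 1.69 and 0.22 and Cdkn1a at 1.39 and 0.11 lie far under the diagonal. Among the clock genes Nr1d2 lies at 1.71 and 1.11. The difference in rhythm passed for Arntl and not for Cdkn1a.

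The promoter of Fkbp5 is shown because it is the member whose averaged rhythm passed the test. RefSeq's windows for GRCm38.p6 hold 250 bases before to 50 after each start and were found for 9 of the 10 members, in 16 windows. Both strands were searched for the full glucocorticoid response element (AGAACA and TGTTCT with any 3 bases between), its single hexamer AGAACA, the E-box CACGTG that ARNTL dimers bind, the cyclic AMP element TGACGTCA and its core TGACG, the FOXO element GTAAACA, the D-box as TTATGTAA or TTACGTAA, and the nuclear receptor hexamer AGGTCA. The 250 bases before the Fkbp5 start, on the minus strand of chr17:28486150-28486399, held an E-box from -169 to -164, here in capitals, which 7.15% of 32851 windows share, and none of the other motifs.
Fkbp5: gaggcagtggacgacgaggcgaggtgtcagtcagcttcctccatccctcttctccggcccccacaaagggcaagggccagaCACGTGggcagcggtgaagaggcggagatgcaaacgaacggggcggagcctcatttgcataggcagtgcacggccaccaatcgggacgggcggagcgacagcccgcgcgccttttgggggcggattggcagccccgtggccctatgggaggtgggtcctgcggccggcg
Glucocorticoid response elements of Fkbp5 are known from its introns, which the window does not cover. An E-box also stood before Sgk1, Dusp1 and Irs2.

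By level, 6 of the 9 members differed between the genotypes, against 24% of all genes. Igfbp1, Ddit4, Tsc22d3 and Sgk1 were higher in Cre livers (4 of 9, against 12% of genes called higher), and Klf9 and Nr3c1 were lower (2 of 9, against 12.1% called lower). The median difference of the 9 members was 0.01, the value of Tat, whose probe was saturated, and over the other 8 it was 0.28, beside 0.00 over all genes. Since RNA of whole liver was measured, fewer cells of a type and less RNA per cell cannot be told apart.

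Tsc22d3 encodes GILZ, a leucine zipper protein that carries part of the anti-inflammatory action of glucocorticoids. It ran from -1.38 through a median of -0.60 to 0.44 in floxed livers and from -0.59 through 0.17 to 1.23 in Cre livers, and was higher in Cre livers in 12 of 12 pairs (a Cre and a floxed array matched for age and time). The difference was 0.74 ± 0.18 (SE), or 1.67-fold (limma adjusted p = 0.0059). Its 3 probes gave 0.74, 0.83 and 0.42, and each passed. In the 20-week series the lowest Cre and the highest floxed value met at -0.59 and the 6 values of each genotype did not overlap, while in the 10-week series the ranges overlapped. Most 20-week arrays, however, lay on slides of 1 genotype. On the 20-week slide that held both, the difference was 0.29, between Cre livers of ZT0 and ZT4 and floxed livers of ZT16 and ZT20. With the slide as a block the difference over all arrays was 0.86 ± 0.22 (limma adjusted p = 0.023).

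Ddit4 encodes REDD1, an inhibitor of the growth kinase mTORC1 that glucocorticoids, hypoxia and energy stress induce. Its values ran from -2.12 through -0.81 to 0.41 in floxed and from -0.95 through 0.05 to 0.90 in Cre livers. The difference was 0.84 ± 0.23, or 1.80-fold (adjusted p = 0.010, higher in 11 of 12 pairs). The mean of both ages was higher in Cre livers at all 6 times. At ZT4 it was -1.83 in floxed and -0.34 in Cre livers, at ZT8 -1.74 and -0.88, and at ZT12 -0.58 and 0.60. At ZT0, ZT16 and ZT20 it was -0.23, -0.23 and -0.75 in floxed livers against 0.35, 0.24 and -0.26 in Cre livers, so the means lay closer there.

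Sgk1 encodes a kinase related to AKT that glucocorticoids, mineralocorticoids and serum induce. Its floxed values ran from -1.17 through -0.07 to 0.17 and its Cre values from -0.72 through 0.12 to 1.31. The difference was 0.62 ± 0.18, or 1.53-fold (adjusted p = 0.016, higher in 10 of 12 pairs), and with the slide as a block it was 0.99 ± 0.23 (adjusted p = 0.012). The 10-week floxed livers were low from ZT4 to ZT12 and at ZT20, between -1.17 and -0.82, whereas the 20-week floxed livers lay between -0.33 and 0.17. The low arrays were the floxed arrays of slides 2 and 3, and those of slide 1 (ZT0 and ZT16) lay at -0.06, so time and slide cannot be told apart there. At matched times the difference was 0.05 on slide 1, 1.26 on slide 2 and 1.23 on slide 3. On slide 6 it was 0.50, between Cre livers of ZT0 and ZT4 and floxed livers of ZT16 and ZT20.

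Sgk1 is shown next because 1 of its 6 windows, on the plus strand of chr10:21993640-21993889, was the member window with a full glucocorticoid response element, from -189 to -175, which 0.00913% of all windows (3 windows) hold. The capitals also mark an E-box from -246 to -241 that overlaps the reverse of the hexamer AGAACA.
Sgk1: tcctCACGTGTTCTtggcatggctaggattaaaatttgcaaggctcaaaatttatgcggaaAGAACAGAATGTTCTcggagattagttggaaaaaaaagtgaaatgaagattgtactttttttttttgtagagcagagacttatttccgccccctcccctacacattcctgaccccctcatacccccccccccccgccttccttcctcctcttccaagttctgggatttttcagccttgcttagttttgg
The single hexamer AGAACA, present in 19% of windows, also stood in 2 other Sgk1 windows and in 1 of the 3 windows of Tsc22d3. Which of the Sgk1 starts the array probe reports on is not known here.

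Igfbp1 encodes a secreted protein that binds insulin-like growth factors and is a textbook target of FOXO1, raised by fasting and lowered by insulin. It had the widest range of the members, from -3.39 through -1.41 to 0.12 in floxed and from -2.05 through -0.17 to 0.72 in Cre livers. The difference was 1.09 ± 0.31, or 2.12-fold (adjusted p = 0.016, higher in 10 of 12 pairs). On 2 Cre arrays its Cy5 signal was saturated, so the Cre values there are lower bounds. The lowest floxed values were -3.39 and -3.26, at ZT12 and ZT8 of 20 weeks, and the pairs that went the other way were ZT16 of 10 weeks and ZT20 of 20 weeks. With the slide as a block the difference was 0.95 ± 0.42 and no longer passed (adjusted p = 0.19).

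**Figure D3:**
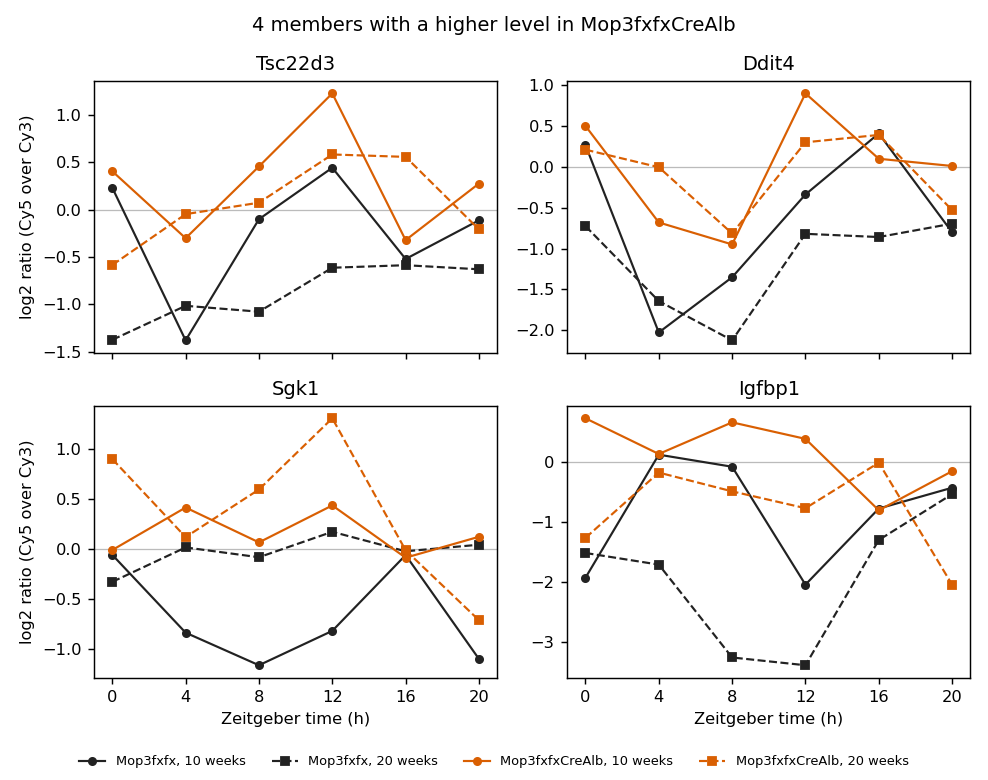
Log2 ratio to the reference pool against zeitgeber time in hours for Tsc22d3, Ddit4, Sgk1 and Igfbp1, 1 point per array, with colours and line styles as marked under the panels. The Tsc22d3 values of Cre livers lie above those of floxed livers of the same age at all 6 times, and those of Igfbp1 cross at ZT16 of 10 weeks and at ZT20 of 20 weeks.

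Nr3c1, the receptor itself, was lower in Cre livers by a small step. Its values ran from -0.26 through 0.08 to 0.51 in floxed and from -0.47 through -0.20 to 0.38 in Cre livers, a difference of -0.29 ± 0.08 (adjusted p = 0.014, 1.22-fold lower, lower in 11 of 12 pairs). Of its 4 probes 2 passed, at -0.29 and -0.32, and the others gave -0.18 and -0.37. The step lay almost wholly at 20 weeks: the mean difference over 6 pairs was -0.07 ± 0.07 (SD) at 10 weeks and -0.51 ± 0.25 at 20 weeks, and the interaction of age and genotype passed (-0.45 ± 0.13 SE, adjusted p = 0.035), 1 of 9 members against 10.6% of all genes. It passed for 1 of the 4 Nr3c1 probes (adjusted p of 0.20, 0.23 and 0.67 for the others), and was lost with the scanner software's ratio (-0.26, adjusted p = 0.22) and in the Cy5 channel alone (-0.42, adjusted p = 0.10). At 20 weeks, however, 4 of the 6 arrays of each genotype lay on slides of 1 genotype. On the slide that held both, the difference was -0.08, between Cre livers of ZT0 and ZT4 and floxed livers of ZT16 and ZT20. On the slides of 10 weeks, at matched times, it was -0.05, -0.13 and -0.02. With the slide as a block the genotype difference was -0.07 ± 0.07 (adjusted p = 0.62), so for this gene slide and genotype at 20 weeks cannot be told apart. The interaction was also lost when any 1 of 14 arrays was left out (adjusted p of up to 0.069): the floxed arrays of ZT4, ZT8 and ZT12 and the Cre arrays of ZT8, ZT12, ZT16 and ZT20 at each age.

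**Figure D4:**
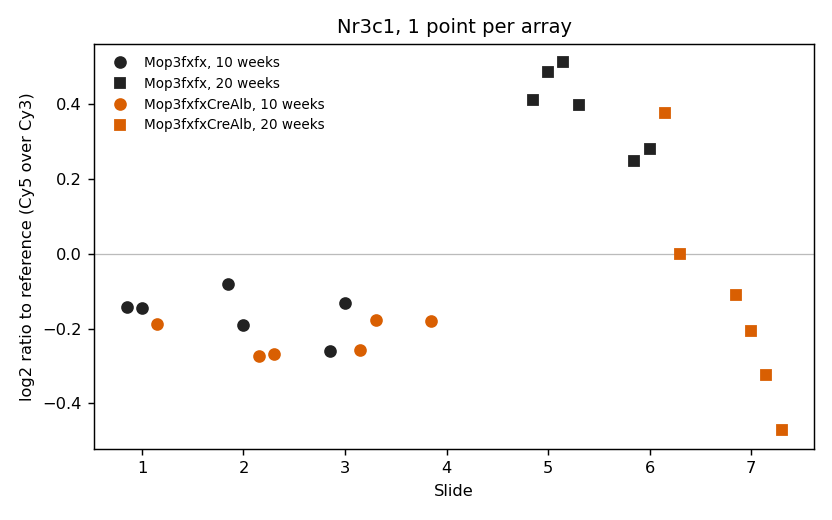
Log2 ratio of Nr3c1 to the reference pool (vertical axis) by slide (horizontal axis), 1 point per array, with floxed livers in black, Cre livers in orange, circles for 10 weeks and squares for 20 weeks. The 4 floxed arrays of slide 5 lie between 0.40 and 0.51 and the 4 Cre arrays of slide 7 between -0.47 and -0.11, while slide 6 holds both genotypes.

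Klf9, a Krüppel-like factor induced by glucocorticoids and thyroid hormone, ran from -0.78 through -0.12 to 0.77 in floxed and from -1.24 through -0.59 to 0.45 in Cre livers. It was lower in Cre livers by -0.38 ± 0.12 (adjusted p = 0.026, 1.30-fold lower, lower in 11 of 12 pairs), and within the 4 slides that held both genotypes the differences were -0.32, -0.40, -0.48 and -0.65. The last, on the 20-week slide, set Cre livers of ZT0 and ZT4 against floxed livers of ZT16 and ZT20, so it mixes time of day with genotype. Its second probe, of about the same brightness (median Cy5 intensity of 2116 against 1883), gave 0.03 ± 0.18 and did not pass (adjusted p = 0.92), so the 2 Klf9 probes disagree. The call was also lost with the scanner software's own ratio (-0.29, adjusted p = 0.12). The Klf9 window on chr19 was the member window with GTAAACA, the form of the FOXO element searched for, which 3.65% of windows hold. Other forms of that element were not searched for, so the other members are not shown to lack it.

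Dusp1, a phosphatase that switches off MAP kinases and responds to glucocorticoids and to cyclic AMP, did not pass in any test. Its values ran from -0.56 through 0.35 to 1.34 in floxed and from -0.62 through 0.32 to 1.04 in Cre livers, and the difference was -0.05 with a 95% interval from -0.48 to 0.38. The window before its start, on the minus strand of chr17:26508473-26508722, is shown because it held the cyclic AMP element TGACGTCA, which 1.79% of windows hold, 9 bases before an E-box. All matches are in capitals.
Dusp1: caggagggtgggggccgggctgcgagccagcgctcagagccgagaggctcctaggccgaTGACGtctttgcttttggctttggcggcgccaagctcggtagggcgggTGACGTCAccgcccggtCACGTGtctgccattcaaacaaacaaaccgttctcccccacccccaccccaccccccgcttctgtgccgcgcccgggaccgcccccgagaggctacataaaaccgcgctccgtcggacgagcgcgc
Tat, tyrosine aminotransferase and the classical glucocorticoid-induced liver enzyme, could not be followed. Its Cy5 signal reached saturation on 12 of the 12 floxed arrays and on 8 of the 12 Cre arrays, so no fold is given.

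**Figure D5:**
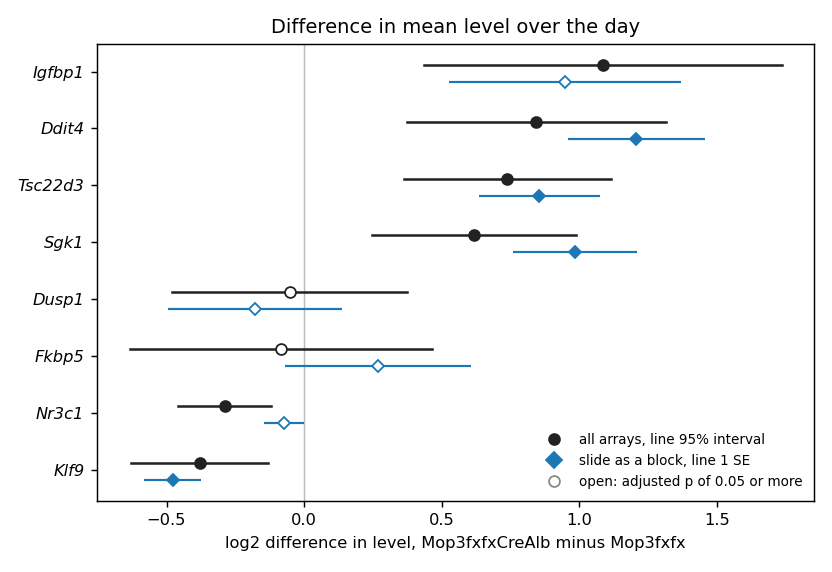
Difference in mean log2 level over the day, Cre minus floxed, for 8 members, with black circles and 95% intervals from all 24 arrays and blue diamonds with bars of 1 SE with the slide as a block. Filled symbols have an adjusted p under 0.05. Tat is left out as saturated. Igfbp1 at 1.09 and 0.95 and Nr3c1 at -0.29 and -0.07 are the members that were called without the block and not with it.

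The 6 genotype calls each held when any 1 of the 24 arrays was left out, with an adjusted p of at most 0.0499, for Klf9. Split by age, limma called 0 of 9 members in the 10-week arrays alone (2 at an unadjusted p under 0.05), against 3.4% of all genes, and 4 of 9 in the 20-week arrays alone, against 30.6% of all genes. Those 4 were Tsc22d3, Ddit4, Igfbp1 and Nr3c1. For every gene most 20-week arrays lay on slides of 1 genotype, so slide and genotype cannot be fully told apart in these calls. At 10 weeks the differences were 0.53 for Tsc22d3, 0.62 for Ddit4, 0.83 for Sgk1 and 1.01 for Igfbp1, of the same sign as at 20 weeks.

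Age was the comparison in which 3 of 9 members passed. Klf9 was lower at 20 than at 10 weeks (-0.77 ± 0.12 SE, adjusted p = 0.00012), and so was Igfbp1 (-1.02 ± 0.31, adjusted p = 0.017), 2 of 9 against 13.3% of genes lower at 20 weeks. Nr3c1 was higher at 20 weeks (0.32 ± 0.08, adjusted p = 0.0052), 1 of 9 against 18% of genes. The second Klf9 probe gave -0.29 (adjusted p = 0.22), and the other 3 Nr3c1 probes lay between -0.22 and -0.10, opposite in sign to the first. The ages were collected on other days and hybridised on other slides, so age cannot be told apart from these. The reference pool of 10-week livers was used on the arrays of both ages. With the slide as a random block Klf9 kept its call and Igfbp1 (-0.97, adjusted p = 0.17) and Nr3c1 (0.31, adjusted p = 0.053) did not.

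In a list of genes of glucocorticoid supply and inactivation, the receptor complex and coregulators, those that passed were lower in Cre livers. Of 16 measured, limma called 7 lower in Cre livers and 0 higher (1 at an unadjusted p under 0.05), with a median difference of -0.18 beside 0.00 over all genes. Of all genes 12.1% were called lower and 12% higher. Serpina6, which encodes the corticosteroid-binding globulin of plasma, ran from -0.01 to 1.42 in floxed and from -1.17 to 0.26 in Cre livers, and fell by 1.17 ± 0.12 (adjusted p = 6.9e-07, lower in 12 of 12 pairs). Hsd11b1, which regenerates active glucocorticoid inside the hepatocyte, ran from -0.05 to 0.70 and from -0.47 to 0.18 and fell by 0.59 ± 0.07 (adjusted p = 1.4e-05, lower in 12 of 12 pairs). Akr1d1, a steroid reductase that inactivates glucocorticoids and serves bile acid synthesis, fell by 0.79 ± 0.16 (adjusted p = 0.0015). These differences passed with the slide as a block as well, at -1.13, -0.46 and -0.79. Ncoa2, a receptor coactivator, fell by 0.36 ± 0.08 (adjusted p = 0.0043) and did not pass with that block (-0.24, adjusted p = 0.23). In rhythm limma called 0 of these 16 genes in floxed livers (2 at an unadjusted p under 0.05), 0 in Cre livers (1) and 0 on average (4).

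Of 17 other glucocorticoid induced genes 7 passed in the averaged rhythm, against 3.5% of all genes, with a median amplitude of 0.39 beside 0.09 over all genes. Lpin1, a phosphatidate phosphatase, had amplitudes of 1.52 in floxed and 1.18 in Cre livers with peaks at ZT 11.04 and ZT 11.9 (averaged adjusted p = 0.00018). The clock gene Per1, which has a glucocorticoid element of its own, had 0.98 and 0.78 with peaks at ZT 12.4 and ZT 12.1 (0.00096). The transcription factor gene Cebpd had 0.80 and 0.51 with peaks at ZT 14.1 and ZT 13.7 (0.024). Their peaks lay within 3 h of that of Fkbp5. Cdkn1a, the cell cycle inhibitor p21, was the exception among the 4 with the smallest p: its amplitudes were 1.39 and 0.11 with a floxed peak at ZT 20.7. For the difference in rhythm limma called 0 of the 17, so the rhythm of Cdkn1a was not shown to differ between the genotypes. By level 1 of the 17 rose, Cdkn1a by 1.34 ± 0.18 (adjusted p = 3.4e-05), and 1 fell, Angptl4, an inhibitor of lipoprotein lipase, by 0.79 ± 0.23 (adjusted p = 0.018). Of all genes 12% were called higher and 12.1% lower. With slides as blocks the Angptl4 difference was -0.46 and no longer passed (adjusted p = 0.44), while that of Cdkn1a was 1.98 and passed.

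Of 17 core clock and clock output genes 14 passed in the averaged rhythm, with a median amplitude of 0.59. In floxed livers 12 of the 17 passed, with a median amplitude of 0.91, and in Cre livers limma called 0 (5 at an unadjusted p under 0.05), with a median of 0.27. The 17 glucocorticoid induced genes measured the same way gave 3 calls and a median of 0.41 in floxed livers, and 0 calls (5 at an unadjusted p under 0.05) and a median of 0.22 in Cre livers. Dbp and Nr1d1, direct targets of the clock, had amplitudes of 2.18 and 1.55 in floxed and 0.81 and 0.59 in Cre livers. Nr1d2 kept more, with 1.71 in floxed and 1.11 in Cre livers (limma adjusted p = 0.096 in Cre livers alone), so the clock genes did not all behave alike. Of these 17 the difference in rhythm itself passed for Arntl alone, so a larger loss in clock genes than in Fkbp5 was not tested.

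Of 23 other fasting and insulin responsive genes 4 were higher and 8 lower in Cre livers, and 5 passed in the averaged rhythm. The shares of all genes were 12% higher, 12.1% lower and 3.5% in the averaged rhythm. Pdk4, a kinase that shuts glucose carbon out of mitochondria in fasting, rose by 1.502 ± 0.20 (adjusted p = 2.7e-05), and the insulin receptor substrate Irs1 rose by 0.82 ± 0.12 (6.9e-05), each in 12 of 12 pairs. Cpt1a, the entry step of mitochondrial fatty acid oxidation, fell by 0.77 ± 0.11 (7.4e-05), and Acot1, a thioesterase of the same fasting response, fell by 1.44 ± 0.21 (7.0e-05), each in 12 of 12 pairs. Genes that fasting induces thus stood on both sides, as Igfbp1 rose and Cpt1a fell. In rhythm, Lpin2 peaked at ZT 10.7 and the fasting hormone Fgf21 at ZT 7.1, with averaged amplitudes of 0.53 and 0.79. Their rhythms did not pass with slides as blocks (adjusted p = 0.060 and 0.054), whereas the 4 differences in level did.

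By level 24% of all genes were called between the genotypes, a share near that of both lists that follow. Among 13 immediate early genes, which share fast induction with Dusp1, 1 rose (Nr4a1, an orphan nuclear receptor, by 0.93 ± 0.25, adjusted p = 0.0099) and 2 fell, the mRNA decay factor Zfp36 by 0.43 ± 0.11 (adjusted p = 0.0059) and Ier3 by 0.18 ± 0.06 (adjusted p = 0.046). With slides as blocks none of these 3 passed: Nr4a1 was 0.73 (adjusted p = 0.26), Zfp36 -0.47 (0.063) and Ier3 -0.11 (0.53). In the averaged rhythm 1 of the 13 passed, Dusp6, with a peak at ZT 4.6, and it was lost with that block (adjusted p = 0.19). Of 14 heat shock and temperature genes 1 rose, the cold-inducible Cirbp (0.55 ± 0.17, adjusted p = 0.022), and 2 fell, Hspb1 by 1.61 ± 0.21 (adjusted p = 2.3e-05) and Stip1 by 0.31 ± 0.08 (adjusted p = 0.0099). With slides as blocks Hspb1 passed, and Cirbp (0.40, adjusted p = 0.20) and Stip1 (-0.33, adjusted p = 0.10) did not. In the averaged rhythm limma called 0 of the 14, although 9 had an unadjusted p under 0.05.

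Across the 24 arrays Ddit4 and Tsc22d3 had the highest correlation between members (r = 0.68) and Nr3c1 and Tsc22d3 the lowest (r = -0.69). These are descriptions, since the arrays share slides, times and genotypes. Genes whose log2 ratio followed Fkbp5 closely over the 24 arrays, named after their values were seen, included the RIKEN transcript 6030422H21Rik (r = 0.97), the small nucleolar RNA host gene Snhg3 (0.88), Lpin1 (0.85) and AA986860 (0.84).

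The tissue was checked against markers fixed for its cell types. Of 8 hepatocyte markers 6 were measured, all well above background on every array, and limma called 0 of the 6 by genotype (0 at an unadjusted p under 0.05). Their mean log2 Cy5 intensity ran from 15.1 to 15.6 in floxed and from 14.9 to 15.6 in Cre livers. The saturated Tat had a mean log2 intensity of 15.7 over both dyes. Saturation of the marker probes was not counted, so the 0 calls do not show an unchanged share of hepatocytes. Among markers of other cells, those higher in Cre livers were the cholangiocyte genes Sox9 and Spp1 (2 of 5), the stellate genes Lrat and Lum (2 of 7), Lyve1 (1 of 6 endothelial), Mpeg1 (1 of 8 macrophage) and Fabp4 (1 of 5 adipocyte). Lower in Cre livers were the adipocyte gene Cfd, by the widest step of these markers (-3.05 ± 0.36 SE, adjusted p = 6.7e-06), and the red cell gene Alas2 (-0.56 ± 0.07, adjusted p = 2.6e-05), so the adipocyte markers called went both ways. Their part in the higher level of Tsc22d3, Ddit4, Sgk1 and Igfbp1 was not tested. The mean level of the cholangiocyte markers, as log2 Cy5 intensity, ran from 8.52 to 9.65 in floxed and from 9.15 to 9.81 in Cre livers. The pancreas genes Cela1 and Ctrb1 reached 12.0 on the Cre array of ZT4 at 20 weeks against at most 9.05 on floxed arrays, and the 6 genotype calls held without that array. The Cre array of ZT16 at 10 weeks was alone on its slide, scanned apart, and was the dimmest of its age, with a median Cy3 intensity of 66.1. The median Cy3 intensity of an array lay between 66.1 and 163 and the median Cy5 intensity between 83.1 and 246. The number of arrays sets the precision.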

How the data were processed

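The files are scanner output of 2-colour Agilent arrays, processed by the authors with Agilent Feature Extraction 9.1.3.1, per the file headers. The deposited columns used were mean and background intensities in both dyes (45018 spots per array), the quality flags, and the log10 ratio made by the authors' software, to which the deposited value table was equal (largest difference 0). Intensities were background-corrected (normexp, offset 50), loess-normalised within arrays with 1639 control spots at weight 0, and averaged per probe. Of 41174 probes 27847 passed the filter, a Cy3 signal well above background on 4 or more arrays. The probe brightest over both dyes stood for its gene. Genes were named by transcript accession or symbol through the RefSeq gene table.

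All 24 arrays were fitted with limma 3.58.1 in R 4.3.3 (statmod 1.5.0; tables read by data.table in version 1.17.8) to a mean level and a 24 h curve (cosine and sine terms) per genotype and a term for age, with Benjamini-Hochberg adjustment over all genes of a test and calls under 0.05. Rhythms were F tests, and the p-values measure the spread of pools around the curve. Named genes are all members, Arntl and, per list, at most the 4 called members with the smallest p in the averaged rhythm or the genotype difference. The members and lists were chosen with earlier results of these data known. Scripts were tested on simulated data, and figures were drawn with matplotlib 3.10.9. Alternatives are given in the closing section.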

Additional observations from a re-analysis of the deposited data

Results flagged for a closer look

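The difference in Nr3c1 between the genotypes differed between the ages, by a test of the difference itself: the interaction of age and genotype was -0.45 ± 0.13 (SE, limma adjusted p = 0.035), and it passed for 1 of the 4 probes of the gene. The difference was lower in Cre livers in 5 of 6 pairs at 10 weeks and in 6 of 6 at 20 weeks. Of the 20-week arrays, 4 of 6 per genotype lay on slides that held 1 genotype, and with the slide as a random block the interaction was -0.33 (adjusted p = 0.16). Slide and genotype cannot be told apart there.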

How the results depend on the processing

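For the 9 members in 7 tests, 787 values under alternatives other than single arrays left out gave the same direction and call in 736, lost a call in 28, gained 1 in 5 and turned sign in 18. With single arrays left out, the sign also turned for 1 to 6 of the 24 arrays in 7 tests: the genotype difference of Fkbp5 (2 arrays), Dusp1 (3) and Tat (6), the age difference of Dusp1 (3) and the interactions of Igfbp1 (6), Klf9 (1) and Tat (3). None of the turned values, and none of those they turned from, passed the test. They concern the genotype difference of Fkbp5 (0.0034 with the scanner software's ratio, 0.27 and 0.012 with the slide as a fixed and a random block, 0.18 with the scan date as a block, 0.040 with array weights, 0.19 in the 20-week arrays, 0.0049 with 1 of the arrays left out), of Dusp1 (0.29 in the Cy5 channel alone, 0.20 in the 10-week arrays) and of the saturated Tat (-0.0064 with offset 16, -0.058 and -0.010 with the slide as a fixed and a random block, -0.054 with the scan date, -0.018 in the 10-week arrays). The same held for the age difference of Dusp1 (-0.19) and Fkbp5 (0.090) and the interactions of Sgk1 (0.051) and Tsc22d3 (-0.022) in the Cy5 channel alone, and for the interaction of Igfbp1 (-0.18 with a random slide block, -0.018 with 1 array left out) and Klf9 (-0.0085 with 1 array left out). In each of these cases the cause was not tested.

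Over all genes, the 4554 genotype calls became 1844 with the slide and 2044 with the scan date as a fixed block, 6838 with array weights and 645 in the 10-week arrays. The 290 floxed rhythms became 453 and 532 with the slide as a fixed and a random block, 651 with the scan date, 440 with array weights, 7 and 11 in the 10-week and 20-week arrays, and 76 with times as levels. The 663 averaged rhythms became 0 and 53 at the single ages and 160 with times as levels. The 0 rhythms in Cre livers became 1 without the filter, 3 in the Cy5 channel alone, 1 with either slide block, 11 with the scan date, 79 with array weights and 1 at 20 weeks. The 6 differences in rhythm became 11 with the scanner ratio and in Cy5 alone, 10 and 12 with the slide blocks, and 0 at each age alone and with times as levels. The 5949 age calls became 2018 with a random slide block. The 2019 interactions became 1215 with the scanner ratio, 185 in Cy5 alone and 584 with a random slide block. Single ages and times as levels leave fewer residual degrees of freedom, and the cause of the other shifts was not tested. With single arrays left out the counts ran from 3631 to 4952 for genotype, 173 to 298 and 0 to 28 for floxed and Cre rhythms, 430 to 753 for averaged rhythms, 2 to 10 for the difference in rhythm, 4952 to 6778 for age and 967 to 4335 for the interaction. The lowest floxed and averaged counts came without the ZT12 arrays of 20 weeks, and the highest interaction count without the Cre array of ZT0 at 20 weeks. Fits of age with the slide or scan date as fixed blocks could not be made, as each slide holds 1 age. The labels give no replicate numbers. With the 12 pairs of arrays of 1 age and time as blocks, limma called 5001 genotype differences, 4113 of them shared with the 4554, and the same 6 members (adjusted p of at most 0.027). Saturated and dim spots, the pooling of mice and 1 array per genotype, age and time limit what these data resolve.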

Other observations

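Some values of the members belong to no comparison above. Tsc22d3 and Sgk1 were highest at ZT12 in 3 of their 4 series, and no time was shared as the maximum by all 4 series of any member other than Fkbp5. For Fkbp5 this held for its brightest probe and not for its other probes. The transcript 6030422H21Rik, which followed Fkbp5 at r = 0.97 over 24 arrays, had amplitudes of 1.25 in floxed and 0.88 in Cre livers with peaks at ZT 11.2 and ZT 12.4. It is named from the array file alone, and where it lies in the genome is not known here. With array weights the averaged rhythm of Ddit4 passed (adjusted p = 0.042), and likewise when scan dates were blocks (0.037) or times were levels (0.045).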
